A study of Mus musculus with 16 samples.

Results

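The response of the mouse hypothalamus to a 30 h fast was followed in AgRP+/- males, in which 1 of the alleles for agouti-related peptide is intact. The comparison set the 4 arrays titled AgRP+/- fasted against the 4 arrays titled AgRP+/- fed ad lib, 8 of the 16 arrays of the series. It covered every annotated probe above the table median in at least 4 of the 16 arrays, which gave 12876 of 25697 probes, for 9530 of 16593 genes. The fasted group held AgRP+/- males without food for 30 h, and its controls were AgRP+/- males fed ad libitum. The other 8 arrays held AgRP-/- males, which lack the peptide, 4 of them fasted for 30 h and 4 fed ad libitum. All 4 groups were male and of mixed strain background, and the fasted and the fed AgRP+/- mice alike carried the heterozygous allele, so neither group was wild type. Total RNA of the hypothalamus was hybridised to Illumina bead arrays with 1 colour, and the labels do not give the age of the mice or say whether each array held a separate animal. All values are deposited log2 intensities, a change is the fasted mean minus the fed mean, and the p-values measure the spread between these arrays, which may be technical.

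The hypothalamus reads energy stores through circulating hormones and nutrients. Neurons of its arcuate nucleus that make agouti-related peptide and neuropeptide Y promote feeding and are active in hunger, while neighbouring neurons that make proopiomelanocortin restrain feeding. Fasting also raises circulating glucocorticoids and fatty acids, which reach glia and blood vessels of the brain as well as neurons. Because RNA came from whole tissue, fewer cells of a type and less RNA per cell could not be told apart in any result.

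The AgRP+/- arrays correlated between 0.983 and 0.991 with each other over the kept probes. Of 44 listed neuropeptide genes 30 were kept, as were 6 of 18 listed transcription factors of the hypothalamus. Fed array 2 stood apart in pituitary transcripts, with Gh at 7.78 and Prl at 7.34, whereas the other AgRP+/- arrays lay between 4.36 and 5.05 for Gh and between 4.31 and 4.78 for Prl. The mean of 3 transcripts of midbrain dopamine neurons (Slc6a3, Chrna6 and Th) was 8.81, 8.68, 8.04 and 7.17 in fasted arrays 1 to 4, against 7.88, 7.04, 6.98 and 7.42 in fed arrays 1 to 4. The dimmest minus the brightest Actb probe was -5.61, -4.47, -4.48 and -5.22 log2 units in fasted arrays 1 to 4, against -5.90, -5.98, -5.27 and -6.19 in fed arrays 1 to 4. This measure can move with RNA quality, a link that was not tested in these arrays. The part of these differences in the results below was not tested, apart from the fits in which they entered as covariates or in which the array was left out.

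Fasting moved 97 of the 12876 annotated probes past an adjusted p of 0.05 in the limma model (0.753%), 74 of them higher in fasted mice (0.575%) and 23 lower (0.179%). They stood for 87 genes, 64 higher and 23 lower. The sizes were mostly modest, with a median of 0.63 log2 units among the called probes and a smallest of 0.26. Only 11 called probes passed 1 log2 unit, 8 higher and 3 lower. In 6 called rises (Cdkn1a on its dimmer probe, Hr on its dimmer probe, Itgad, Nkain1, Scube2 and Degs2) the fed mean, and in 2 called falls (Lhx8 and Tbc1d7) the fasted mean, lay under the table median of 5.125, where the size of a change is less certain. Without adjustment 1509 annotated probes had a p under 0.05, 825 higher and 684 lower. In 93 of the 97 called probes the fasted and the fed arrays did not overlap, against 733 of all annotated probes (5.69%). By direction these were 70 rises, against 3.32% of all annotated probes, and 23 falls, against 2.38%. The test that called the probes itself favours groups that do not overlap, so these counts are a description and not further evidence. The called count ranged from 39 without fed array 1 to 101 without fasted array 3. It was 47, 40 and 62 without fasted arrays 1, 2 and 4, and 60, 68 and 65 without fed arrays 2, 3 and 4. For single genes below, lost and held calls refer to fits that left out 1 AgRP+/- array, unless other alternatives are named.

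**Figure D1:**
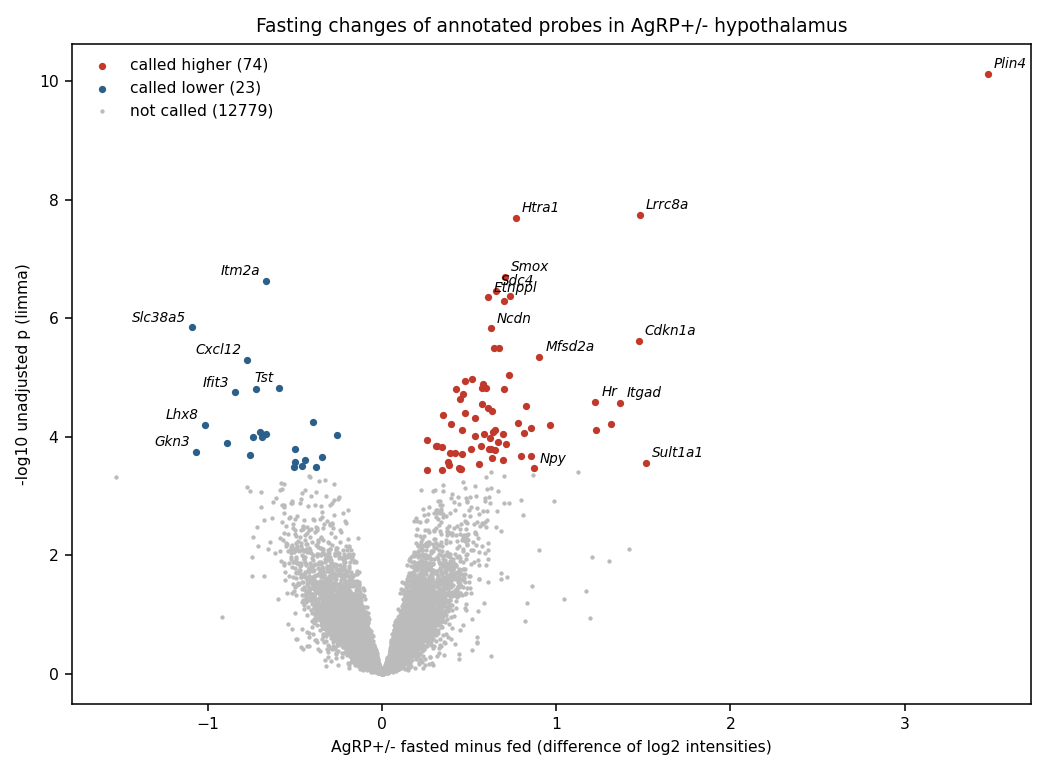
Change of every annotated kept probe between fasted and fed AgRP+/- arrays (x axis, difference of log2 intensities) against the -log10 of its unadjusted limma p (y axis). Red points are the 74 probes called higher in fasted mice, blue points the 23 called lower and grey points the rest; Plin4 at 3.48 stands alone on the right, and no called fall passes -1.09.

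The largest rise belonged to Plin4, a coat protein of lipid droplets. Plin4 read 9.88, 9.53, 8.13 and 9.05 in fasted arrays 1 to 4, against 5.78, 5.21, 5.58 and 6.12 in fed arrays 1 to 4. Every fasted array lay more than 1 log2 unit above every fed array, and fasted array 3 was the lowest of its group. The change of 3.48 (SE 0.27, 95% interval 2.91 to 4.05) was an 11.1-fold difference in intensity (adjusted p = 1.02e-06). It stayed called in all 22 alternatives, between 3.23 and 3.88.

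Lrrc8a, the obligatory subunit of the volume-regulated anion channel, was next among genes that held in every alternative. It read 9.42, 8.84, 8.37 and 8.57 in fasted arrays, against 7.33, 7.16, 7.36 and 7.44 in fed arrays. The groups were separate and the fed arrays lay within a narrow band. The rise was 1.48 (SE 0.16, adjusted p = 9.29e-05), while a second, slightly dimmer Lrrc8a probe changed by 0.30 (adjusted p = 0.408). Lrrc8a was the single called member among 12 kept genes of cell volume and osmotic balance, where 0.619% of all genes were called higher. The list's median change was -0.02, against -0.0015 over all 9530 genes.

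Cdkn1a, an inhibitor of cyclin-dependent kinases, had 2 called probes. The dimmer one read 6.86, 6.83, 5.63 and 6.21 in fasted arrays, against 4.74, 4.80, 4.98 and 5.11 in fed arrays, with no overlap. All 4 fed values lay under the table median. Its rise was 1.47 (SE 0.22, adjusted p = 0.00253) and its call held in 19 of the 20 alternatives that tested it, lost with the dopamine transcripts as covariate (adjusted p = 0.0521). The brighter probe read 9.08, 8.56, 7.27 and 8.08 in fasted arrays, against 6.75, 6.81, 7.46 and 6.71 in fed arrays, so that fasted array 3 fell below fed array 3. Its rise was 1.32 (SE 0.26, adjusted p = 0.0185), and a further Cdkn1a probe changed by 0.81 (adjusted p = 0.135).

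Hr, a corepressor of nuclear receptors whose transcription responds to thyroid hormone, rose on both of its probes. The brighter probe read 11.40, 10.75, 9.66 and 10.19 in fasted arrays, against 9.29, 9.16, 9.18 and 9.46 in fed arrays. The fasted arrays were spread over more than 1 log2 unit and still lay above all fed arrays. Its rise was 1.22 (SE 0.22, adjusted p = 0.0114). Among the fits that left out an AgRP+/- array, the call was lost only without fasted array 2 (adjusted p = 0.0556). It was also lost with the AgRP+/- arrays alone and with the dopamine transcripts as covariate. Leaving out AgRP+/- fed array 2 and AgRP-/- fed array 1 together lost it too. The dimmer probe rose by 1.23 (adjusted p = 0.0206).

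Itgad, the alpha D integrin chain of macrophages, and Sult1a1, a phenol sulfotransferase, were the other genes with a rise above 1. Itgad read 6.86, 6.77, 5.31 and 5.77 in fasted arrays, against 4.75, 4.94, 4.73 and 4.81 in fed arrays. Its fed arrays lay under the table median of 5.125, and fasted arrays 1 and 2 stood highest. The rise was 1.37 (SE 0.25, adjusted p = 0.0114). Among the fits that left out an AgRP+/- array, the call was lost only without fasted array 2 (adjusted p = 0.0558). It was also lost with the AgRP+/- arrays alone and with the dopamine transcripts as covariate. Dimmer Itgad probes changed by 1.12 and 0.17 (adjusted p = 0.0514 and 0.807). Sult1a1 read 10.58, 9.80, 8.85 and 9.29 in fasted arrays, against 8.16, 7.32, 8.03 and 8.95 in fed arrays. Here fasted array 3 lay just below fed array 4. The rise was 1.52 (SE 0.34, adjusted p = 0.0418), and among the 8 fits that left out an AgRP+/- array the call held only without fasted array 3 and without fed array 4, with a highest adjusted p of 0.14.

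**Figure D2:**
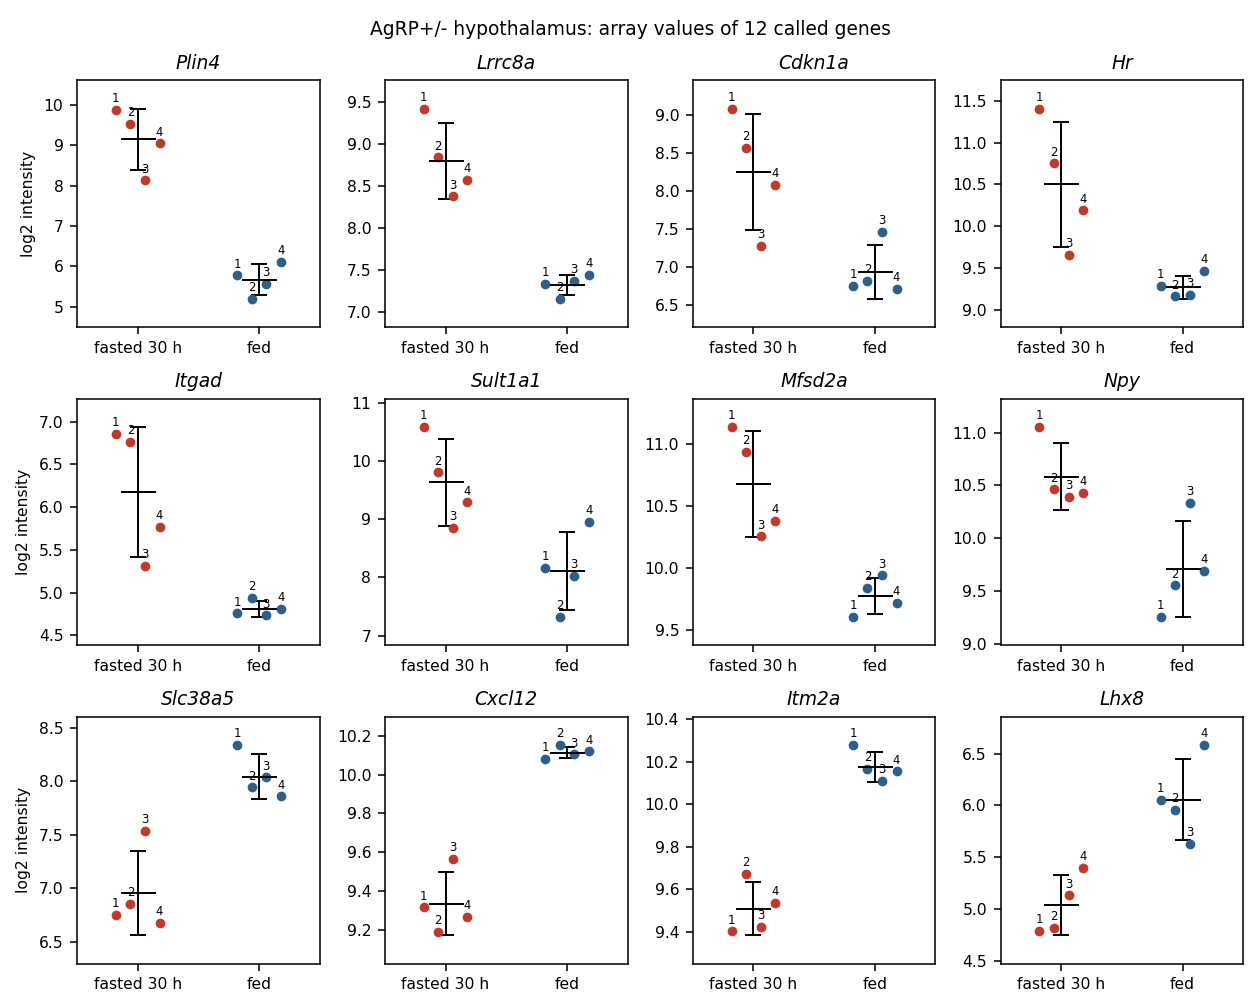
Log2 intensity (y axis) of 12 called genes in each AgRP+/- array, fasted left and fed right, with array numbers beside the points; the dash is the mean of 4 arrays and the bar its SD. Plin4, Lrrc8a, Hr and Itgad separate fully with fasted array 3 lowest of its group, Cdkn1a (brighter probe) and Sult1a1 overlap, and the falls of Slc38a5, Cxcl12, Itm2a and Lhx8 separate fully.

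To show what lies upstream of the genes with the largest rises, the 250 bases before the start of Plin4, Sult1a1 and Lrrc8a are given 5′ to 3′ on the strand of the gene, from RefSeq on GRCm38.p6. Capitals mark matches to 4 short motifs searched on both strands, namely TGTTCT (a single arm of the glucocorticoid receptor's element), TGTTTAC (forkhead), CACGTG (E-box) and AGGTCA (a single arm of the elements of other nuclear receptors). The Plin4 window is chr17:56109783-56110032 on the minus strand, the Sult1a1 window chr7:126676419-126676668 on the minus strand, and the Lrrc8a window chr2:30237519-30237768 on the plus strand.
Plin4: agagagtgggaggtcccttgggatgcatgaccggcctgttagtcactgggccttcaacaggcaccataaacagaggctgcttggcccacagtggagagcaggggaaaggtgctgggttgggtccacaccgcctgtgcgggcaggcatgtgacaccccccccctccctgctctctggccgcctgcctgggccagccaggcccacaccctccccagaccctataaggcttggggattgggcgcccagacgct
Sult1a1: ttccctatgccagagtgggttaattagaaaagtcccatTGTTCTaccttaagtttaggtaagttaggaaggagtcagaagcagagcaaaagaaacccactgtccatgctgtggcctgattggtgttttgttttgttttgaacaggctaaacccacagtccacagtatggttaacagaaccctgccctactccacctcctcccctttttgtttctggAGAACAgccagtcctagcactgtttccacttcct
Lrrc8a: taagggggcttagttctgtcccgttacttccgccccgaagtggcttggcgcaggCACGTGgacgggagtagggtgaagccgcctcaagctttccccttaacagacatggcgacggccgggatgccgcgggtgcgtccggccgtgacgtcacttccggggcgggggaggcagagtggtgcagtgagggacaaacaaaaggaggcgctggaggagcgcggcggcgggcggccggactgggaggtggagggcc
The Plin4 window held 0 matches, the Sult1a1 window 2 matches to TGTTCT and the Lrrc8a window 1 match to CACGTG, at position -196 from the start. TGTTCT lay in 9.72% of 72 promoters of genes called higher, against 11.2% of 10071 promoters of kept genes and 16.1% of all 32851 promoters. CACGTG lay in 9.72%, against 8.06% and 6.02%; AGGTCA lay in 9.72%, against 10.8% and 14.02%; and TGTTTAC lay in 2.78%, against 2.11% and 3.17%. A match describes the letters of the window and is not evidence of binding.

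Of 24 kept genes of lipid droplets and triglyceride handling, 3 rose and 0 fell, set against 0.619% of all genes called higher and 0.178% called lower on 1 probe per gene, and the list's median change was 0.03. Besides Plin4, they were Pnpla2, the first lipase of triglyceride breakdown, and Hsd17b11, a dehydrogenase of lipid droplets. Pnpla2 read 10.23, 9.96, 9.60 and 9.68 in fasted arrays, against 9.33, 9.16, 9.42 and 9.43 in fed arrays, a rise of 0.53 (SE 0.11, adjusted p = 0.0222). Its groups did not overlap, but the call was lost without fasted array 1 or 2 and without fed array 1 or 2 (highest adjusted p 0.0961). Hsd17b11 rose by 0.86 (SE 0.19, adjusted p = 0.0352), its groups separated between fasted array 3 at 8.11 and fed array 4 at 7.94, and its call held only without fasted array 3 or fed array 4 (highest adjusted p 0.143).

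Among 24 kept genes for burning fatty acids and ketone bodies 1 rose and 0 fell, with a median change of 0.04. Of all genes 0.619% were called higher and 0.178% lower. The called gene was Angptl4, a secreted inhibitor of lipoprotein lipase. It read 8.26, 7.83, 7.93 and 7.87 in fasted arrays, against 7.36, 6.89, 7.06 and 7.33 in fed arrays. The rise was 0.81 (SE 0.16, adjusted p = 0.0214), with the call lost without fasted array 1 and without fed array 2 or 3 (highest adjusted p 0.0828). Pdk4, the kinase that shuts off pyruvate dehydrogenase, read 7.12, 6.74, 6.40 and 6.97 in fasted arrays and 6.26, 6.19, 6.202 and 5.79 in fed arrays, a change of 0.70 that missed the threshold (adjusted p = 0.106). Outside the lists, Acot11, an acyl-CoA thioesterase, rose by 0.53 (adjusted p = 0.0165), Acsbg1, an acyl-CoA synthetase, by 0.39 (adjusted p = 0.0444), and Cyp4f15, a cytochrome P450, by 0.63 (adjusted p = 0.0214). Each had separate groups on the called probe, while a slightly brighter Acsbg1 probe changed by 0.21 (adjusted p = 0.296). Acot11 lost its call without fed array 3 (adjusted p = 0.0568), Acsbg1 kept it only without fasted array 4 or fed array 4 (highest 0.16), and Cyp4f15 lost it without arrays 1 and 2 of either group (highest 0.0846).

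Cholesterol synthesis (17 kept genes) and fatty acid synthesis (15 kept genes) had 0 called members each. In the cholesterol list 14 of 17 genes had a change below 0, against 4810 of all 9530 kept genes, and the median was -0.14. The median of fatty acid synthesis was -0.05. Nsdhl, a late enzyme of cholesterol synthesis, had the smallest p of its list, with 7.23, 7.31, 6.92 and 7.31 in fasted arrays against 7.52, 7.64, 7.67 and 7.81 in fed arrays, a change of -0.47 (adjusted p = 0.102). In oxidative phosphorylation 0 of 67 kept genes were called and the median was -0.07. Of the 67 genes 53 had a change below 0, against the same 4810 of 9530.

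Genes known to respond to glucocorticoids were the list with the most calls, 8 of 31 kept members higher and 0 lower, where 0.619% of all genes were called higher and 0.178% lower on 1 probe per gene. Like every list here, it was assembled with results of these arrays known, so no list's count is independent evidence of direction. Plin4, Mfsd2a, Cdkn1a, Fam107a, Angptl4, Mt1, Mertk and Sult1a1 were the called members. The median change was 0.30, and 28 of the 31 members lay above 0, against 4720 of all 9530 kept genes. Averaged over its members, the list lay 0.44, 0.30, -0.05 and 0.23 from its own mean in fasted arrays 1 to 4, against -0.28, -0.35, -0.17 and -0.15 in fed arrays 1 to 4. Fasted array 3 was the nearest to the fed arrays. The called count was 2, 4, 10 and 5 without fasted arrays 1 to 4 and 3, 3, 6 and 5 without fed arrays 1 to 4, with the median between 0.21 and 0.32. It was 1 with the dopamine transcripts as covariate, where the median was 0.23.

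Fam107a, an actin-associated protein induced by stress, read 11.71, 11.05, 11.004 and 11.37 in fasted arrays, against 10.63, 10.56, 10.66 and 10.70 in fed arrays, and rose by 0.65 (SE 0.13, adjusted p = 0.0206). Its groups were separate, and the call was lost without fasted array 1 or 4 and without fed array 1 or 2 (highest adjusted p 0.0625). Mt1, a metal-binding metallothionein, was among the brightest probes at 14.58, 14.54, 14.51 and 14.18 in fasted arrays, against 14.18, 14.04, 14.18 and 14.16 in fed arrays. Fasted array 4 lay among the fed arrays, the change was 0.31 (adjusted p = 0.0277), and the call held only without that array (highest adjusted p 0.12). Mertk, a receptor for the uptake of dying cells and synapses, changed by 0.69 (adjusted p = 0.0391) with fasted array 3 at 7.61 and fed array 2 at 7.63. Its call was lost without fasted array 1, 2 or 4 and without fed array 1 or 4 (highest adjusted p 0.14). Members that missed the threshold, named after their values were seen, include the kinase gene Sgk1 with a change of 0.98 (adjusted p = 0.11), the chaperone gene Fkbp5 with 0.62 (adjusted p = 0.097) and Tsc22d3 with 0.22 (adjusted p = 0.34), all commonly used as readouts of the receptor.

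Transcripts of the blood vessel wall moved in both directions. Among 15 kept transporters of the blood-brain barrier, Mfsd2a rose and Slc38a5 fell, with a list median of -0.03. Of all genes 0.619% were called higher and 0.178% lower. Mfsd2a, which carries docosahexaenoic acid as lysophosphatidylcholine across brain endothelium, read 11.14, 10.94, 10.26 and 10.38 in fasted arrays, against 9.61, 9.84, 9.94 and 9.72 in fed arrays. Fasted arrays 1 and 2 stood highest and the groups did not overlap. The rise was 0.90 (SE 0.14, adjusted p = 0.00383), with the call lost among the alternatives only with the dopamine transcripts as covariate (adjusted p = 0.0734). Slc38a5, a glutamine and neutral amino acid carrier, read 6.75, 6.85, 7.53 and 6.68 in fasted arrays, against 8.34, 7.94, 8.04 and 7.86 in fed arrays. Fasted array 3 again lay nearest to the fed group. The fall was 1.09 on the log2 scale, the largest among called annotated probes (SE 0.16, adjusted p = 0.00168), and stayed called in all 22 alternatives.

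Of the markers of arterial endothelium, 3 of 9 kept genes fell, 0 rose and 8 had a change below 0, where 0.178% of all genes were called lower and 4810 of 9530 had a change below 0. This list too was chosen with earlier results of these data known. The called count was between 1 and 3 over the alternatives. The list's median was -0.29, and it ranged from -0.41 to -0.26 over the alternatives. Cxcl12, a chemokine, read 9.32, 9.19, 9.56 and 9.27 in fasted arrays, against 10.08, 10.15, 10.10 and 10.12 in fed arrays. The fed arrays were almost identical and far above all fasted arrays. The fall was 0.78 on the log2 scale (SE 0.12, adjusted p = 0.00403) and was called in all 22 alternatives, although 2 dimmer Cxcl12 probes changed by -0.26 and -0.09 (adjusted p = 0.792 and 0.914).

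Gkn3, a gene of arterial endothelium in mouse brain, read 4.65, 5.77, 5.96 and 5.495 in fasted arrays, against 6.57, 6.79, 6.22 and 6.57 in fed arrays. Fasted array 1 was the lowest, and the groups were separate. The fall was 1.07 on the log2 scale (SE 0.23, adjusted p = 0.0314), with the call held only without fasted array 3 or fed array 3 (highest adjusted p 0.0943). Rnase1, a secreted ribonuclease, read 5.78, 5.47, 6.17 and 5.70 in fasted arrays, against 6.48, 6.43, 6.65 and 6.53 in fed arrays. The fall was 0.74 on the log2 scale (SE 0.15, adjusted p = 0.0227), with the call held only without fasted array 3 or fed array 2 (highest adjusted p 0.108). Unc5b, a guidance receptor of arterial tip and stalk cells, changed by -0.41 with separate groups and missed the threshold (adjusted p = 0.201).

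Of 17 kept general endothelial markers 1 rose and 2 fell, where 0.619% of all genes were called higher and 0.178% lower, and the median was 0.04. Itm2a, a membrane protein of brain endothelium, read 9.40, 9.67, 9.43 and 9.54 in fasted arrays, against 10.28, 10.16, 10.11 and 10.15 in fed arrays, a fall of 0.67 on the log2 scale (SE 0.09, adjusted p = 0.000647) that was called in all 22 alternatives. Emcn, a sialomucin of capillary and venous endothelium, fell by 0.50 on the log2 scale (adjusted p = 0.0296), with the call held only without fasted array 1 or fed array 3 (highest adjusted p 0.103). Pglyrp1, a peptidoglycan recognition protein, read 8.004, 7.51, 7.25 and 7.25 in fasted arrays, against 6.23, 6.79, 6.75 and 6.82 in fed arrays, and rose by 0.85 (SE 0.17, adjusted p = 0.0201). That call was lost without fasted array 1 or 2 and without fed array 1 (highest adjusted p 0.0716). Mural cell markers had 0 calls among 10 kept genes and a median of -0.07. Sparc, a matrix glycoprotein, was the single call among 16 kept genes of basement membrane and vessel matrix, at 0.35 (adjusted p = 0.015), lost without fasted array 1 and without fed array 1 or 4 (highest 0.0564). A dimmer Sparc probe changed by 0.16 (adjusted p = 0.658).

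Etnppl, a lyase of phosphoethanolamine that is abundant in astrocytes, read 9.94, 9.89, 9.93 and 9.78 in fasted arrays, against 9.12, 9.39, 9.18 and 9.43 in fed arrays, and rose by 0.61 (SE 0.08, adjusted p = 0.000695). Its second probe rose by 0.70 (adjusted p = 0.000697). Smox, a spermine oxidase, rose on 4 of 5 probes by 0.57 to 0.70; its brightest read 10.53, 10.48, 10.28 and 10.15 in fasted arrays, against 9.62, 9.60, 9.68 and 9.71 in fed arrays (adjusted p = 0.000647). Htra1, a secreted serine protease, read 10.86, 10.77, 10.54 and 10.78 in fasted arrays, against 10.00, 9.90, 9.81 and 10.16 in fed arrays, a rise of 0.77 (SE 0.08, adjusted p = 9.29e-05). The groups of all 3 genes were separate, and these genes stayed called in all 22 alternatives. So did Sdc4, a heparan sulfate proteoglycan, which read 9.84, 9.63, 9.47 and 9.62 in fasted arrays, against 8.96, 9.02, 8.97 and 9.01 in fed arrays, and rose by 0.65 (SE 0.09, adjusted p = 0.000695).

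Prodh, proline dehydrogenase, read 7.66, 7.52, 7.26 and 7.34 in fasted arrays, against 6.71, 6.91, 6.78 and 6.69 in fed arrays, and rose by 0.67 (SE 0.10, adjusted p = 0.00288). Cbs, which commits homocysteine to cysteine synthesis, rose on both probes, by 0.70 and 0.60 (adjusted p = 0.00798 for each). Gpt2, the mitochondrial alanine aminotransferase, rose by 0.46 (adjusted p = 0.0206), with the call lost without fasted array 1 or 2 and without fed array 1 or 3 (highest 0.0771). Cbs and Gpt2 were the 2 calls among 19 kept genes of serine synthesis and the integrated stress response, where 0.619% of all genes were called higher; the list's median was 0.12, and 0.03 with the Actb probe distance as covariate. In this list 0 genes were called with the AgRP+/- arrays alone or with the dopamine transcripts as covariate. Ivd, an enzyme of leucine breakdown, rose by 0.31 (adjusted p = 0.0277), with its call held only without fed array 4 (highest 0.0875). Tst, a mitochondrial thiosulfate sulfurtransferase, ran the other way, with 7.95, 8.03, 8.44 and 7.99 in fasted arrays against 8.81, 8.64, 8.67 and 8.66 in fed arrays, a fall of 0.59 on the log2 scale (SE 0.10, adjusted p = 0.00798). Prodh, Cbs and Tst were called without each array in turn.

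Astrocyte markers held 2 called rises among 12 kept genes, where 0.619% of all genes were called higher. Of the 12 genes 8 lay above 0, against 4720 of all 9530 kept genes, and the median was 0.10. With the dopamine transcripts as covariate 0 were called. Agt, angiotensinogen, which astrocytes make in brain, read 11.24, 11.17, 10.82 and 10.92 in fasted arrays, against 10.52, 10.56, 10.54 and 10.46 in fed arrays, and rose by 0.52 (SE 0.09, adjusted p = 0.00765). Fgfr3, a fibroblast growth factor receptor, rose by 0.59 (adjusted p = 0.0214), with the call held only without fasted array 3 or fed array 2 (highest 0.103). Aqp4, the astrocyte water channel, changed by -0.51 with overlapping groups (adjusted p = 0.284). Microglia and macrophage markers had Itgad as their single call among 15 kept genes and a median of -0.03. In oligodendrocyte markers 0 of 11 kept genes were called on their brightest probe, and the median was 0.11. Their changes ran both ways, from -0.70 to 0.46, with 7 above 0 and 4 below. At an unadjusted p under 0.05, 4 were higher and 2 lower, against 633 higher and 490 lower of all 9530 kept genes. A dimmer probe of Mobp, a myelin protein, was called higher by 0.73 (adjusted p = 0.00674), while its brighter probes changed by 0.70 and 0.46 (adjusted p = 0.058 and 0.346). Anln, an actin-binding protein of myelin septin filaments, rose by 0.66 (adjusted p = 0.0259), with the call held only without fasted array 3 and without fed array 1 or 4 (highest 0.12).

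Heph, a ferroxidase of iron export, rose on both probes, by 0.61 and 0.80 (adjusted p = 0.0298 and 0.0351), the brighter reading 8.64, 8.13, 7.94 and 8.20 in fasted arrays against 7.63, 7.63, 7.46 and 7.74 in fed arrays. Its call on that probe held only without fasted array 3 or fed array 4 (highest 0.104). Selenop, the selenium carrier, read 10.21, 10.47, 10.61 and 10.51 in fasted arrays, against 9.84, 9.65, 10.05 and 9.98 in fed arrays, a rise of 0.57 (adjusted p = 0.0115). Gstm1, a glutathione transferase, rose by 0.46 (adjusted p = 0.00892). Selenop and Gstm1 were called without each array in turn, but a dimmer probe of each changed by -0.21 and -0.55 (adjusted p = 0.663 and 0.232). Gstm1 belongs to a family of near-identical genes, which a probe may not separate.

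Of 30 kept neuropeptide genes 1 rose and 0 fell, where 0.619% of all genes were called higher and 0.178% lower. The list's median was 0.0043. At an unadjusted p under 0.05, 4 were higher and 4 lower, against 633 higher and 490 lower of all 9530 kept genes. Npy, the appetite-promoting peptide of the AgRP neurons, read 11.05, 10.46, 10.39 and 10.43 in fasted arrays, against 9.26, 9.55, 10.33 and 9.69 in fed arrays. The groups were separate only by the small gap between fasted array 3 and fed array 3. The rise was 0.87 (SE 0.20, 95% interval 0.45 to 1.29, adjusted p = 0.0472). Among the fits that left out an array, the call held only without fed array 3, where the change was 1.08. The highest adjusted p was 0.167, and the change was no lower than 0.72 in these fits.

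Pomc, the precursor of melanocortins, read 7.96, 8.02, 8.52 and 7.56 in fasted arrays, against 7.73, 7.81, 8.86 and 7.90 in fed arrays. The groups overlapped throughout, with array 3 the highest of each. The change was -0.06 (95% interval -0.48 to 0.36, adjusted p = 0.943). Cartpt, made by the same neurons and by others, read 12.25, 12.19, 12.33 and 11.82 in fasted arrays, against 11.93, 11.998, 12.18 and 11.99 in fed arrays, a change of 0.12 (95% interval -0.10 to 0.35, adjusted p = 0.697). The intervals leave room for moderate changes of either gene.

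Nts and Gal had the next smallest p among peptides. Nts, neurotensin, read 6.67, 6.70, 6.64 and 6.51 in fasted arrays, against 7.32, 7.26, 7.58 and 7.46 in fed arrays, a change of -0.78 (SE 0.19) with separate groups that missed the threshold (adjusted p = 0.08). Gal, galanin, read 11.18, 11.31, 11.17 and 10.77 in fasted arrays, against 11.504, 11.41, 12.02 and 11.61 in fed arrays, a change of -0.52 (adjusted p = 0.106). Vgf, a precursor of several peptides, changed by 0.40 (adjusted p = 0.192). Receptors and regulators of energy balance had 0 calls among 28 kept genes and a median of 0.06, with Trhr, the receptor of thyrotropin-releasing hormone, at -0.40 (adjusted p = 0.148). Targets of FoxO and insulin signalling had 0 calls among 19 kept genes and a median of 0.11. Of these, Pik3r1, Pdk4, Sesn1 and Foxo1 had the smallest p, with changes of 0.32, 0.70, 0.33 and 0.39 and adjusted p between 0.105 and 0.131.

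**Figure D3:**
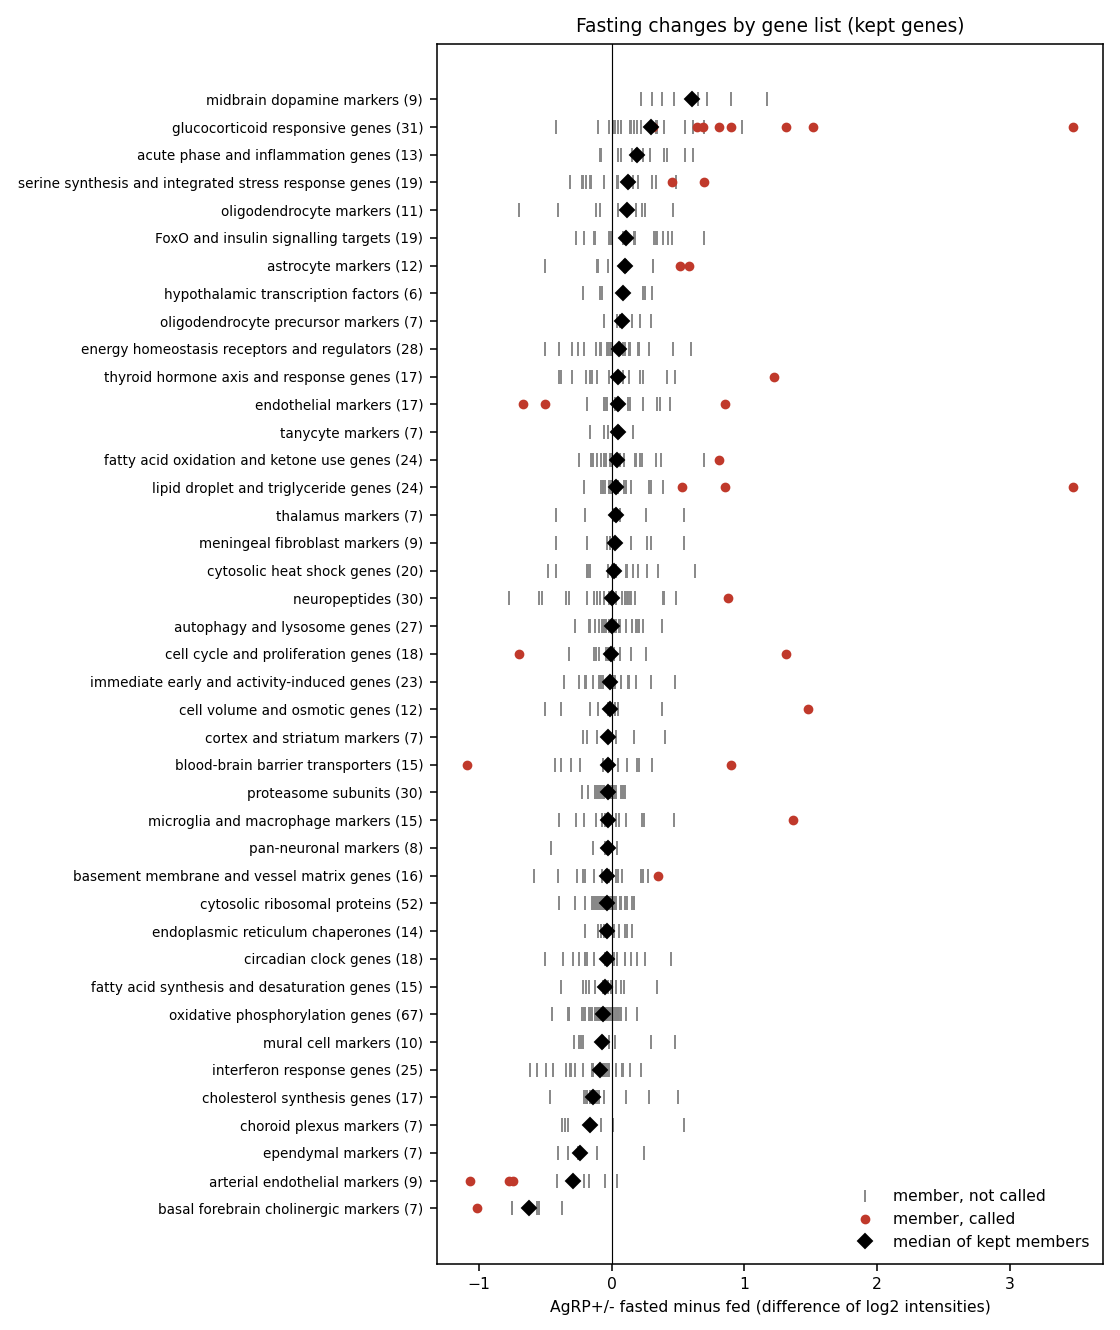
Change between fasted and fed AgRP+/- arrays (x axis, difference of log2 intensities) of the kept members of each gene list with at least 5 kept genes (rows, number kept in brackets; ordered by median). Grey ticks are members not called, red dots called members and black diamonds the median; midbrain dopamine markers have the highest median at 0.61 and basal forebrain cholinergic markers the lowest at -0.63.

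Lists for neurons that lie next to the hypothalamus had the most extreme medians. Markers of basal forebrain cholinergic neurons were below 0 in 7 of 7 kept genes, against 4810 of all 9530, with a median of -0.63. Of the 7 genes 1 was called lower, where 0.178% of all genes were. This was Lhx8, a transcription factor of those neurons, which read 4.79, 4.82, 5.13 and 5.40 in fasted arrays, against 6.05, 5.96, 5.63 and 6.58 in fed arrays. Fasted arrays 1 and 2 were lowest and fed array 4 highest. The fall was 1.02 on the log2 scale (SE 0.20, adjusted p = 0.0185), with the call lost without fasted array 1 or 2 and without fed array 1 or 4 (highest adjusted p 0.0846). Zic4 changed by -0.63, and Chat, the enzyme of acetylcholine synthesis, by -0.75 (adjusted p = 0.106 and 0.266). Over the list, fasted arrays 1 to 4 lay at -0.41, -0.39, -0.22 and 0.10 from the list's mean, against 0.46, 0.35, 0.06 and 0.85 in fed arrays 1 to 4, so fasted array 4 passed fed array 3.

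Markers of midbrain dopamine neurons ran the other way, above 0 in 9 of 9 kept genes, against 4720 of all 9530. Of the 9 genes 0 were called, and the median was 0.61. Slc6a3, the dopamine transporter, read 10.43, 9.82, 9.34 and 7.96 in fasted arrays, against 9.45, 7.59, 7.21 and 8.62 in fed arrays, a change of 1.17 with an SE of 0.53 (adjusted p = 0.395). Th, the enzyme of dopamine synthesis, changed by 0.47 (adjusted p = 0.38) and Lmx1a, a transcription factor of these neurons, by 0.65 (adjusted p = 0.168). Fasted array 4 lay among the fed arrays in Slc6a3 and Th. With these dopamine transcripts (Th, Slc6a3 and Chrna6, averaged) as covariate, 18 annotated probes were called for fasting, and 15 of the 87 called genes were among them. With the distance between the dimmest and the brightest Actb probe as a covariate, 57 probes were called, which included 38 of the 87 genes.

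Pkd2l1, a channel of neurons that contact the cerebrospinal fluid, read 7.06, 6.82, 6.83 and 6.89 in fasted arrays, against 7.70, 7.45, 7.66 and 7.56 in fed arrays, a fall of 0.69 on the log2 scale (SE 0.14, adjusted p = 0.0227). Its groups were well apart, yet the call held only without fasted array 1 or fed array 2 (highest adjusted p 0.0924). Greb1, a gene best known for its response to oestrogen, read 5.69, 5.93, 5.94 and 5.58 in fasted arrays, against 6.40, 6.44, 6.58 and 6.62 in fed arrays, and fell by 0.73 on the log2 scale (SE 0.13, adjusted p = 0.00798). Hmgb2, a chromatin protein of dividing cells, fell by 0.70 on the log2 scale (adjusted p = 0.0214), with the call held only without fasted array 2 and without fed array 2 or 3 (highest 0.0796). Cdkn1a and Hmgb2 were the calls among 18 kept genes of the cell cycle, whose median was -0.01. Of all genes 0.619% were called higher and 0.178% lower.

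Tubb2b, a neuronal beta-tubulin, had the smallest called fall at 0.26 on the log2 scale (SE 0.05, adjusted p = 0.0219), with 13.25, 13.31, 13.40 and 13.42 in fasted arrays against 13.59, 13.61, 13.68 and 13.54 in fed arrays. Its 4 dimmer probes changed by -0.14 to 0.06, and beta-tubulin genes are similar enough for probes to be shared. Ctnnb1, beta-catenin, fell by 0.40 on the log2 scale (adjusted p = 0.0184), while a dimmer probe changed by -0.16 (adjusted p = 0.664). Ncdn, neurochondrin, a neuronal regulator of glutamate signalling, ran against these falls, with 11.95, 11.96, 11.86 and 12.33 in fasted arrays against 11.57, 11.39, 11.19 and 11.44 in fed arrays, a rise of 0.62 (SE 0.09, adjusted p = 0.00168) that was called in all 22 alternatives. Dimmer Ncdn probes changed by 0.39 and -0.09 (adjusted p = 0.1 and 0.817), so the rise rests on the brightest probe. Tubb2b kept its call only without fasted array 3 or 4 or fed array 4 (highest 0.0924), and Ctnnb1 lost it without fasted array 2 or 4 and without fed array 1 or 4 (highest 0.0663).

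Other falls rested on a dim probe of a gene with a brighter probe that did not pass. A dim probe of Tbc1d7, a subunit of the TSC complex that restrains mTORC1, read 4.79, 4.69, 4.73 and 4.64 in fasted arrays, against 6.03, 5.24, 5.52 and 5.65 in fed arrays (change -0.89, adjusted p = 0.0263), while its brighter probes changed by -0.16 and -0.03. For Tcp1, a chaperonin subunit, a dim probe changed by -0.67 (adjusted p = 0.0214) and the bright probe by 0.01. For Nrxn3, a presynaptic adhesion molecule, the values were -0.51 (adjusted p = 0.0456) and -0.29 (adjusted p = 0.294), and for Celf2, an RNA-binding protein, -0.50 (adjusted p = 0.0409) and -0.16 (adjusted p = 0.414). None of these calls held without each array in turn, and the Nrxn3 call was lost without any 1 of the 8.

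On the brightest probes of interferon response genes 0 of 25 kept genes were called and the median was -0.09. Of the 25 genes 19 lay below 0, against 4810 of all 9530 kept genes. A dimmer probe of Ifit3, an antiviral gene, read 6.15, 6.26, 6.43 and 6.66 in fasted arrays, against 7.06, 7.14, 7.23 and 7.45 in fed arrays, a fall of 0.85 on the log2 scale (SE 0.15, adjusted p = 0.00869) that was called without each array in turn. Its brighter probe read 8.52, 8.91, 9.24 and 9.02 in fasted arrays, against 9.31, 9.37, 9.76 and 9.71 in fed arrays, a change of -0.61 that missed the threshold (adjusted p = 0.0988). A dim probe of Gbp3, an interferon-induced GTPase, fell by 0.76 on the log2 scale (adjusted p = 0.0339), with the call held only without fasted array 3 or fed array 3 (highest 0.118), and its brighter probe changed by -0.44 (adjusted p = 0.267).

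Across the 87 called genes, 39 had more than 1 kept probe. Their 50 uncalled probes took the sign of the called probe in 43 cases and the opposite sign in 7, and in 11 genes an uncalled probe was brighter than the called one. In 8 genes more than 1 probe was called. The 6 called probes with no gene symbol comprised 4 rises and 2 falls. The largest of them, ILMN_2703427, read 11.24, 10.20, 10.01 and 10.00 in fasted arrays, against 7.68, 8.06, 9.32 and 8.36 in fed arrays, a rise of 2.01 (SE 0.27, adjusted p = 0.000695). Fed array 3, the highest fed array for this probe, was also the highest fed array for Npy, Pomc and Cartpt.

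Several lists had 0 called members in either direction. They were immediate early genes (23 kept, median -0.01), clock genes (18, -0.04), chaperones of the endoplasmic reticulum (14, -0.04), heat shock genes (20, 0.02), ribosomal proteins (52, -0.04), proteasome subunits (30, -0.03), autophagy and lysosome genes (27, 0.0035) and acute phase genes (13, 0.19). In the clock list Dbp, an output gene, read 11.89, 12.33, 12.16 and 12.38 in fasted arrays, against 12.58, 12.43, 12.46 and 12.45 in fed arrays, a change of -0.29 with separate groups (adjusted p = 0.158). Rbm3, a cold-induced RNA-binding protein, came closest to the threshold of any list gene with no called probe, with 10.78, 11.75, 11.17 and 11.35 in fasted arrays, against 10.55, 10.51, 10.77 and 10.72 in fed arrays, a change of 0.62 (SE 0.15, adjusted p = 0.0514). Fos, the common marker of neuronal activation, changed by -0.36 with overlapping groups (adjusted p = 0.5). Among thyroid hormone genes (17 kept, median 0.05) Hr was the single call, where 0.619% of all genes were called higher.

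The remaining marker lists had 0 calls. Ependymal markers (7 kept) had a median of -0.24, choroid plexus markers (7 kept) of -0.17, meningeal fibroblast markers (9 kept) of 0.03, thalamus markers (7 kept) of 0.03, cortex and striatum markers (7 kept) of -0.03, and blood cell markers (4 kept) of 0.01. Tanycyte markers (7 kept, median 0.04), precursors of oligodendrocytes (7 kept, 0.08), pan-neuronal markers (8 kept, -0.03), GABA neuron markers (2 kept, -0.19) and glutamate neuron markers (3 kept, 0.03) were likewise uncalled. Meningeal markers differed widely between arrays of 1 group, from 0.46 to -1.02 around their mean in fasted arrays and from 0.92 to -1.31 in fed arrays.

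The remaining called genes changed by less than 1 log2 unit. Those with a rise above 0.6 were Nkain1 (0.96), Tatdn2 (0.83), Itga7, a laminin-binding integrin (0.78), Scube2 (0.71), Mapk4, an atypical MAP kinase (0.65), Nde1, a dynein regulator called on 2 probes (0.64 and 0.63), Scrg1 (0.63), Degs2, a desaturase of sphingolipid synthesis (0.63), and Slc25a34, a mitochondrial carrier (0.62). Nkain1 read 5.74, 6.07, 5.29 and 6.04 in fasted arrays, against 4.72, 5.22, 4.46 and 4.90 in fed arrays, low on the scale throughout. Rises between 0.4 and 0.6 were those of Cyp2d22 (0.58), Ankrd54 (0.57), Extl1 (0.55), Timp4, an inhibitor of metalloproteinases (0.51), Chmp4b, an ESCRT subunit (0.48), Carhsp1 (0.48), Ak3, a mitochondrial adenylate kinase (0.46), Shroom1 (0.45), Pbx2 (0.44), Rcan2, a regulator of calcineurin (0.44), Slc44a1, a choline transporter (0.44), Slc6a8, the creatine transporter (0.42), and Rin2 (0.42). For Ak3, Ankrd54 and Rcan2 a brighter probe missed the threshold, with changes of 0.01, 0.27 and 0.19 (adjusted p = 0.986, 0.371 and 0.259). Dimmer Kdm3a probes changed by 0.06 and 0.13 (adjusted p = 0.872 and 0.641). The smallest rises were those of Tsc22d4 (0.39), Kdm3a, a histone demethylase (0.39), Csrp1 (0.38), Rufy1 (0.34), Rab31 (0.34), Lonp2, a peroxisomal protease (0.26), and Ptpn11, the phosphatase SHP2 (0.26). Falls not yet named were those of Bet1, a SNARE of transport from the endoplasmic reticulum (-0.46), Trib2 (-0.44), Mpp6 (-0.38) and 3830406C13Rik (-0.35). Adjusted p for these genes lay between 0.00288 for Nde1 and 0.0478 for Lonp2, Pbx2, Rufy1 and Shroom1.

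Fasted array 3 showed the weakest response. Over the 74 probes called higher, fasted arrays 1 to 4 lay 0.56, 0.41, 0.17 and 0.30 above the mean of each probe over 16 arrays, while fed arrays 1 to 4 lay at -0.36, -0.36, -0.35 and -0.27. Fasted array 3 was the lowest fasted array in 47 of these 74 probes and fasted array 1 the highest in 46. Over the 23 probes called lower, fasted arrays 1 to 4 lay at -0.44, -0.38, -0.28 and -0.35, against 0.33, 0.29, 0.20 and 0.34 in fed arrays 1 to 4. These scores describe arrays that also chose the probes and carry no test.

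**Figure D4:**
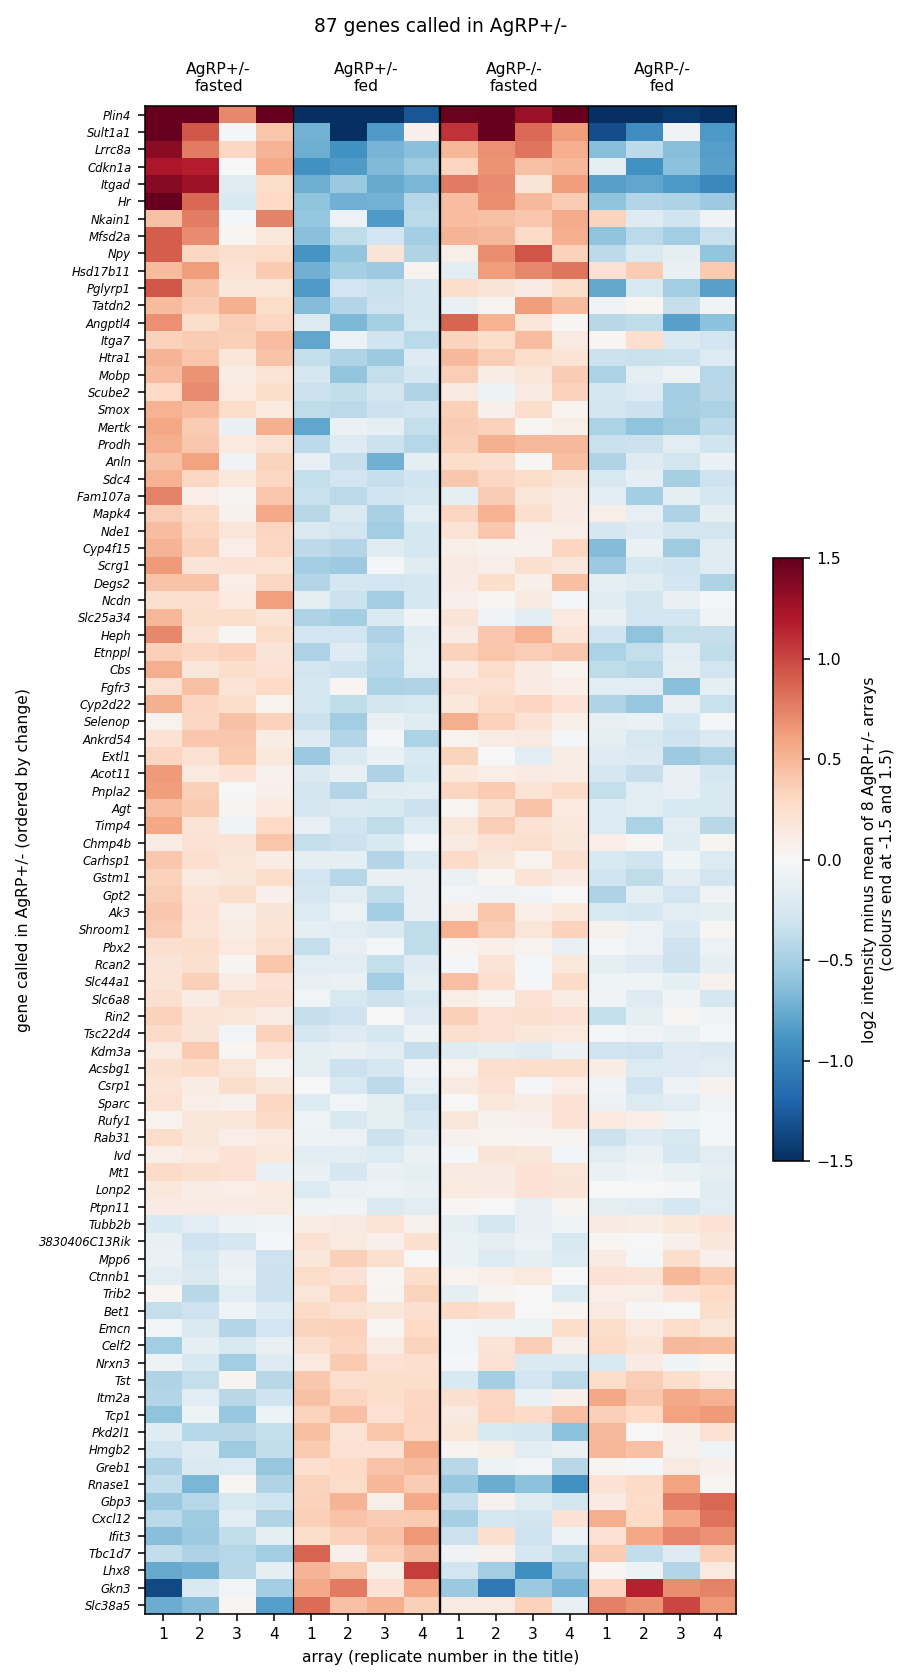
Log2 intensity minus the mean of the 8 AgRP+/- arrays (colour, ending at -1.5 and 1.5) of the 87 genes called in AgRP+/- (rows, ordered by change) in each of the 16 arrays (columns, grouped as AgRP+/- fasted and fed, then AgRP-/- fasted and fed). Rises are palest in AgRP+/- fasted array 3, and most rows repeat their direction in AgRP-/- mice, whose arrays entered the choice of genes only through the shared estimate of error.

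The AgRP-/- arrays measured the same fast in other arrays. Of the 97 probes called in AgRP+/- mice, 96 changed in the same direction in AgRP-/- mice, against 66.8% of all annotated probes, and 33 were called there too, against 0.412% of all annotated probes. These 33 stood for 26 genes, 21 higher and 5 lower. Both contrasts used the same estimate of error for each probe, so these calls are not independent of the choice of probes. The dopamine and Actb differences noted above were also seen in the AgRP-/- arrays, with overlap between fasted and fed arrays in the Actb measure. The mean of the 3 dopamine transcripts was 8.94, 8.78, 8.50 and 9.06 in AgRP-/- fasted arrays 1 to 4, against 7.83, 6.53, 7.89 and 7.98 in AgRP-/- fed arrays 1 to 4, and the dopamine list had a median change of 0.62. The dimmest minus the brightest Actb probe was -4.03, -5.02, -4.60 and -4.71 in AgRP-/- fasted arrays, against -5.16, -5.19, -6.39 and -4.68 in AgRP-/- fed arrays. The cholinergic list had a median change of -0.19 in AgRP-/- mice, against -0.63 in AgRP+/- mice. The part of these differences in the shared direction was not tested. Fasted and fed AgRP-/- arrays did not overlap, in the same direction, in 76 of the 97, where 8.19% of all annotated probes were separate in either direction. Plin4 rose by 3.28 in AgRP-/- mice (adjusted p = 2.82e-06), Lrrc8a by 1.26 (adjusted p = 0.000965), Mfsd2a by 0.92 (adjusted p = 0.00341) and Etnppl by 0.72 (adjusted p = 0.000204), while Cxcl12 fell by 0.76 (adjusted p = 0.00536) and Gkn3 by 1.45 on the log2 scale (adjusted p = 0.00424). The change was smaller in AgRP-/- mice in 77 of the 97 probes, with a median ratio of 0.768, and because the AgRP+/- values chose the probes this ratio is a description. Across the 12876 annotated probes the changes of the 2 genotypes, which share no arrays, correlated with a Pearson's r of 0.50 and a Spearman's rho of 0.46.

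No probe passed the test of the difference between the genotypes' fasting responses. The limma interaction called 0 annotated probes, with 352 at an unadjusted p under 0.05 (2.73%) and a smallest adjusted p of 0.577 over all kept probes. That smallest value belonged to the unnamed probe ILMN_2703427, which changed by -0.01 in AgRP-/- mice, where it lay near the low end of the scale. For the main genes the interval of the difference, AgRP-/- minus AgRP+/-, included 0. It was -1.01 to 0.61 for Plin4, -0.69 to 0.26 for Lrrc8a, -0.61 to 0.57 for Npy, -0.40 to 0.44 for Mfsd2a and -0.02 to 0.92 for Slc38a5. These 5 genes do not stand for all: 14 of the 97 called probes had an unadjusted interaction p under 0.05, although the AgRP+/- arrays that chose them also enter that test. The intervals do not show that the genotypes respond alike. Bet1 was the called probe that ran opposite ways, at 0.04 in AgRP-/- and -0.46 in AgRP+/- mice.

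**Figure D5:**
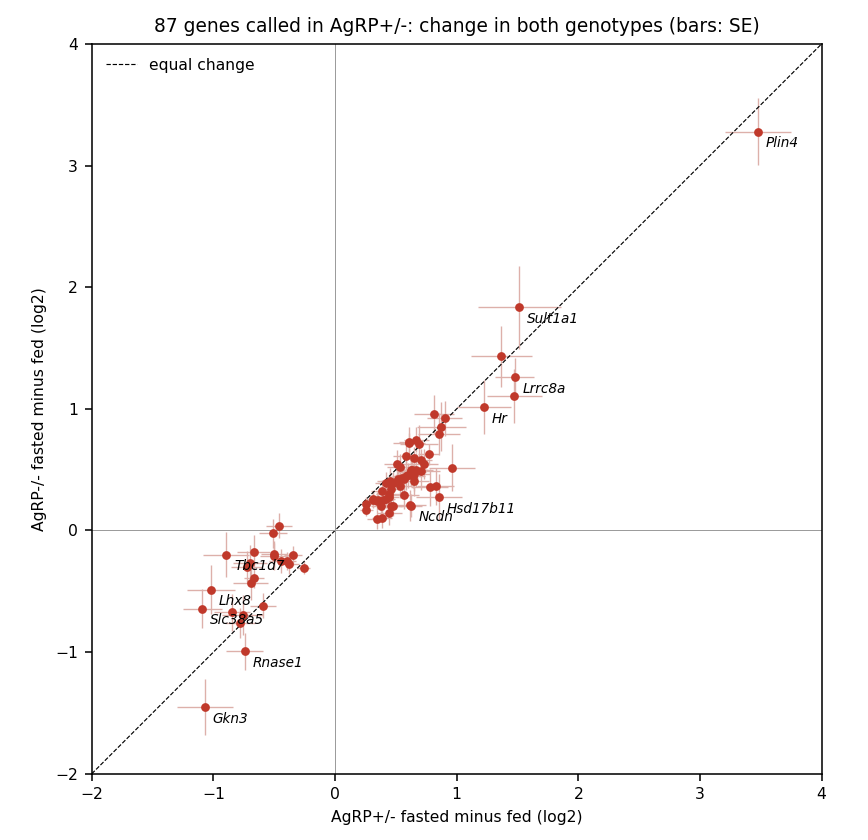
Change with fasting of the 87 genes called in AgRP+/- mice, in AgRP-/- mice (y axis) against AgRP+/- mice (x axis), both as differences of log2 intensities with SE bars. Points lie near or inside the dashed line of equal change, with Plin4 at 3.28 in AgRP-/- and 3.48 in AgRP+/- mice, and Gkn3 and Rnase1 lie below it.

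The firmest calls were few. Of the 87 genes, 26 were called in every fit that left out 1 AgRP+/- array, and 11 in every one of the alternatives in which their probe was tested. These 11 were Plin4, Lrrc8a, Htra1, Smox, Sdc4, Etnppl, Nde1 and Ncdn, which rose, and Slc38a5, Itm2a and Cxcl12, which fell. The direction of all 87 genes was the same in each alternative run. At the other end 36 genes were called in no more than 50% of the alternatives, Npy and Sult1a1 among them.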

How the data were processed

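Per the labels' protocols, RNA was extracted with DNase I treatment, checked on a Bioanalyser and amplified to biotinylated cRNA for the arrays. The submitters' processing notes name limma, with no version; no source used here gives the background correction or normalization. The deposited values are log2 intensities, 1 column per array, and span 4.21 to 14.7. The largest gap between sorted columns was 0.0345, so no further normalization was applied. Scanner files were not used here. Precision is limited by the small number of arrays.

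Probes took gene symbols from the platform annotation (23978 of 25697 had 1 symbol, 0 several and 1719 none), 23962 of them matched by gene identifier to the RefSeq table of GRCm38.p6. A probe was kept if above the table median of 5.125 in at least 4 arrays, which left 13662. limma 3.58.1 in R 4.3.3 fitted 4 group means over all 16 arrays (12 residual degrees of freedom, intensity trend), with two-sided moderated tests and Benjamini-Hochberg adjustment over the 13662 kept probes. A list used the brightest probe of each gene. On simulated data with known shifts, 40.3% of shifts of 0.5, 91.0% of shifts of 1 and 100% of shifts of 2 log2 units were recovered.

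The members, lists and tests were chosen with earlier results of these data known. All 87 called genes are named. Array values are given for many of the largest rises and falls, for Npy, Pomc and Cartpt, and for some called or lowest-p list members. Changes of 3 receptor readouts were added after their values were seen. Alternatives changed the filter, scaling, variance model, arrays and covariates.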

Additional observations from a re-analysis of the deposited data

Results flagged for a closer look

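Among 484 groups of 4 AgRP+/- arrays (242 probes, fasted and fed), 25 had 1 array far from the other 3 by Dixon's test. That is 5.17%, close to the rate of about 1 in 20 that chance gives. All values are log2 intensities. Fed array 3 was the odd one most often. It was high for Cdkn1a on its brighter probe (7.46), Pomc (8.86), Sostdc1 (6.12) and Cartpt on its dimmer probe (11.68). It was low for Rcan2 (10.24), Emcn (7.77), Slc44a1 (9.17), Mbp (13.13) and Des (4.65).

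Fed array 1 was high for Tst (8.81, with the others from 8.64 to 8.67) and low for Pglyrp1 (6.23), Degs2 (4.85) and Lonp2 (10.06). Fed array 2, the array with pituitary transcripts, was low for Mt1 (14.045) and high for Thra (5.17). Fed array 4 was low for Pdk4 (5.79) and high for Crym (8.24, with the others from 6.77 to 6.94).

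Fasted array 1 was high for Npy (11.05, with the others from 10.39 to 10.46), Scrg1 (10.11) and Timp1 (6.07), and low for Lrrc8b (4.31). Fasted array 2 was low for Slc6a8 (10.01) and high for Clic6 (9.32). Fasted array 4 was low for Lmx1a (6.07) and high for Mtor (10.16).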

How the results depend on the processing

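The count of annotated probes called for fasting, 97, moved by more than 1.5 times under several alternatives. It was 28 with the AgRP+/- arrays fitted alone, 57 with the Actb probe distance as covariate, 18 with the dopamine transcripts as covariate and 60 without the AgRP+/- array with pituitary transcripts. It was 44 without AgRP+/- fed array 2 and AgRP-/- fed array 1, an alternative chosen after seeing the data. In these arrays the mean of Gh and Prl lay 3.06 and 1.16 log2 units above the median. Leaving out 1 AgRP+/- array gave 39 to 101. The other settings gave 67 to 114: 73 without a filter, 67 with a stricter one, 97 after another quantile normalization, 92 after median centring, 68 without the intensity trend, 114 with array weights, 76 with 1 probe per gene and 99 with annotated probes only. The interaction count was 0 in each setting in which it was run.

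Deviations of same-numbered fasted and fed AgRP+/- arrays correlated at 0.04, -0.06, 0.30 and -0.10. The labels do not say whether the numbers pair arrays, and so few correlations cannot decide it. With the replicate block 107 probes were called, which included 79 of the 87 genes. Over 1875 combinations of a called gene and an alternative the direction was always that reported, and the call was lost in 673. The medians of the lists moved in 41 of 990 combinations by more than the spread between arrays. They took the other sign in 77 combinations, over 26 of the 45 lists, 15 of them beyond that spread; the causes were not tested. The thyroid hormone median reached -0.02, the clock median 0.04 and the blood-brain barrier median 0.11, while meningeal medians ran from -0.43 to 0.98 and oligodendrocyte medians from -0.08 to 0.23. The glucocorticoid, arterial, cholinergic and dopamine medians kept their sign in each alternative run. With 4 arrays a group, simulated shifts of 0.5 log2 units were called in 40.3% of cases.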
